A study of Mus musculus with 8 samples.

Results

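The NF-kB subunits and the IkB proteins that hold or modify them were examined in whole lung from BALB/c mice with an IL-1b transgene that doxycycline (dox) switches on. The 10 genes were taken by their symbol in the annotation of the array: the subunit genes Nfkb1, Nfkb2, Rel, Rela and Relb, the classical inhibitors Nfkbia, Nfkbib and Nfkbie, and the nuclear IkB proteins Nfkbiz and Bcl3. They held 11 of the 43681 probe sets and 10 of the 27200 genes measured. All mice carried the transgene: 3 arrays were of water-treated mice and 5 of mice treated with dox for 7 days, and per the labels the mice were about 12 weeks old at harvest, whereas the header of a deposited table gives an age of 5 weeks. The series title calls the transgene lung-specific, and no source used here names the promoter or the cells that drive it. Arrays of dox-treated non-transgenic mice were not used here, so dox and IL-1b cannot be told apart. The labels do not say that each array is a separate animal, so p-values refer to the spread from array to array, which may be technical.

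NF-kB is a family of dimeric transcription factors. Rela (p65), Rel (c-Rel) and Relb carry transactivation domains, whereas Nfkb1 and Nfkb2 encode long precursors that are processed to the DNA-binding subunits p50 and p52. Classical IkB proteins keep dimers in the cytoplasm until a receptor such as that of IL-1 activates the IkB kinase (IKK), which marks them for degradation. In the non-canonical pathway the precursor of Nfkb2, itself an IkB-like inhibitor, is processed so that p52 and Relb act together. Nfkbiz (IkB-zeta) and Bcl3 act in the nucleus on dimers of p50 or p52 as co-regulators. In the lung, macrophages and epithelial cells both use the pathway to turn on chemokines.

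Genes of this family are known to hold kappaB sites, the DNA elements that NF-kB binds, so the promoter sequences are shown before the values. RefSeq promoter windows (build GRCm38.p6, from 250 bases before to 50 bases after each annotated start) were available for 7 of the 10 genes, with 3 start sites for Nfkb2 and 1 for each of the others. The promoter set used held no window for Nfkb1, Relb and Nfkbiz, so these 3 genes were not searched. A search of both strands for the degenerate kappaB decamer consensus found a match in 5 of these 7 genes, namely Nfkb2, Rel, Nfkbia, Nfkbie and Bcl3. Rela and Nfkbib held none in this window. Counted by window, 7 of the 9 member windows held a match. Of all 32851 promoter windows, 8.46% held a match, and of the 11745 windows within the GC range of the members, 56.3% to 75%, the share was 12.7%. The stretches from 120 bases before to 30 bases after the start are printed 5′ to 3′ on the strand of the gene. Capitals mark the consensus matches, with overlapping matches merged. They lie at chr19:46304617-46304766 on the plus strand (Nfkb2, first start), chr11:23770940-23771089 on the minus strand (Rel), chr12:55492618-55492767 on the minus strand (Nfkbia), chr17:45555580-45555729 on the plus strand (Nfkbie) and chr7:19822726-19822875 on the minus strand (Bcl3).
Nfkb2: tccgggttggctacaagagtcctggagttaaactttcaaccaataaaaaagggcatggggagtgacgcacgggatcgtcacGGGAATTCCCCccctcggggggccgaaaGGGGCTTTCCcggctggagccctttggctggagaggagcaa
Rel: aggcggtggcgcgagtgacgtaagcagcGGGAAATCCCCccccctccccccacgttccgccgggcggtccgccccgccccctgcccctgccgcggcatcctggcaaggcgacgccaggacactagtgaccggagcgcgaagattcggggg
Nfkbia: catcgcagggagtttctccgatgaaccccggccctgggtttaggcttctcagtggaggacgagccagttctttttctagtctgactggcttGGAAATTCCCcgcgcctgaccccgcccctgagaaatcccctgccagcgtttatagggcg
Nfkbie: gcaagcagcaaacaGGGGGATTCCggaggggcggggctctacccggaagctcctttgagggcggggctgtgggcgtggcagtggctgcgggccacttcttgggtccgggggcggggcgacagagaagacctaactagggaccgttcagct
Bcl3: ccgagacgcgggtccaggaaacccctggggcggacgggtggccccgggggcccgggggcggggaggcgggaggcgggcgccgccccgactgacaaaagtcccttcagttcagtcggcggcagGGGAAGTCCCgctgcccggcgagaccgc

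In Nfkb2 the palindromic match GGGAATTCCC lay at positions -39 to -30 from the first annotated start, and GGGGCTTTCC lay at -11 to -2. Around the second Nfkb2 start GGGACTTTCC began at position 11, and the same bases fell at -225 to -216 from the third start, since these windows overlap. A further match, on the opposite strand, lay at -236 to -227 from the second start. The match of Rel, GGGAAATCCC at -92 to -83, and that of Bcl3, GGGAAGTCCC at 3 to 12, fit the consensus on both strands. The match of Nfkbia, on the opposite strand, lay at -29 to -20, and that of Nfkbie, GGGGGATTCC, at -106 to -97. These are matches of letters, not measured binding sites. The genes with a match included both that rose (Nfkb2, Nfkbie, Bcl3) and that did not pass the test (Rel, Nfkbia). Nfkb1, Relb and Nfkbiz, which rose too, were not searched.

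**Figure D1:**
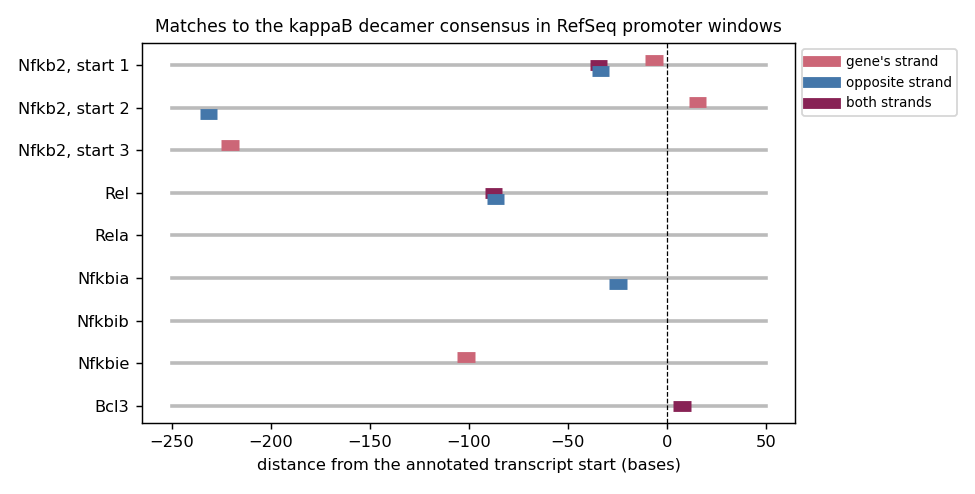
Positions of matches to the kappaB decamer consensus in 9 RefSeq promoter windows of 7 member genes (grey lines, 300 bases each), with distance from the annotated start in bases on the horizontal axis. Colour gives the strand of the match, and the windows of Rela and Nfkbib hold none.

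Most of the family was expressed at a higher level in dox lungs, and none of it at a detectably lower one. Values were tested gene by gene with limma on log2 intensity, with p-values adjusted by Benjamini-Hochberg across the 27200 genes (threshold 0.05), and "rose" or "fell" is used of genes past it. Of the 10 members 6 rose, namely Nfkbiz, Nfkbie, Bcl3, Nfkb2, Relb and Nfkb1, against 3.48% of all genes higher in dox. None fell (0 also at an unadjusted p under 0.05), against 1.52% of all genes. Both background counts fell with an array left out. The 413 lower genes dropped to 211 without water 1, 212 without water 2 and 277 without water 3. Removal of dox 1, 2, 3 or 5 left 265, 224, 279 and 260 genes, and that of dox 4 left 410. The 946 higher genes ran from 661 (without water 3) to 880 (without dox 4). The change was above 0 in 10 of 10 members and in 42.5% of all genes. The median log2 change was 0.52 over the members and -0.03 over all genes. The same 6 members had no dox value as low as any water value, against 7.25% of all genes.

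**Figure D2:**
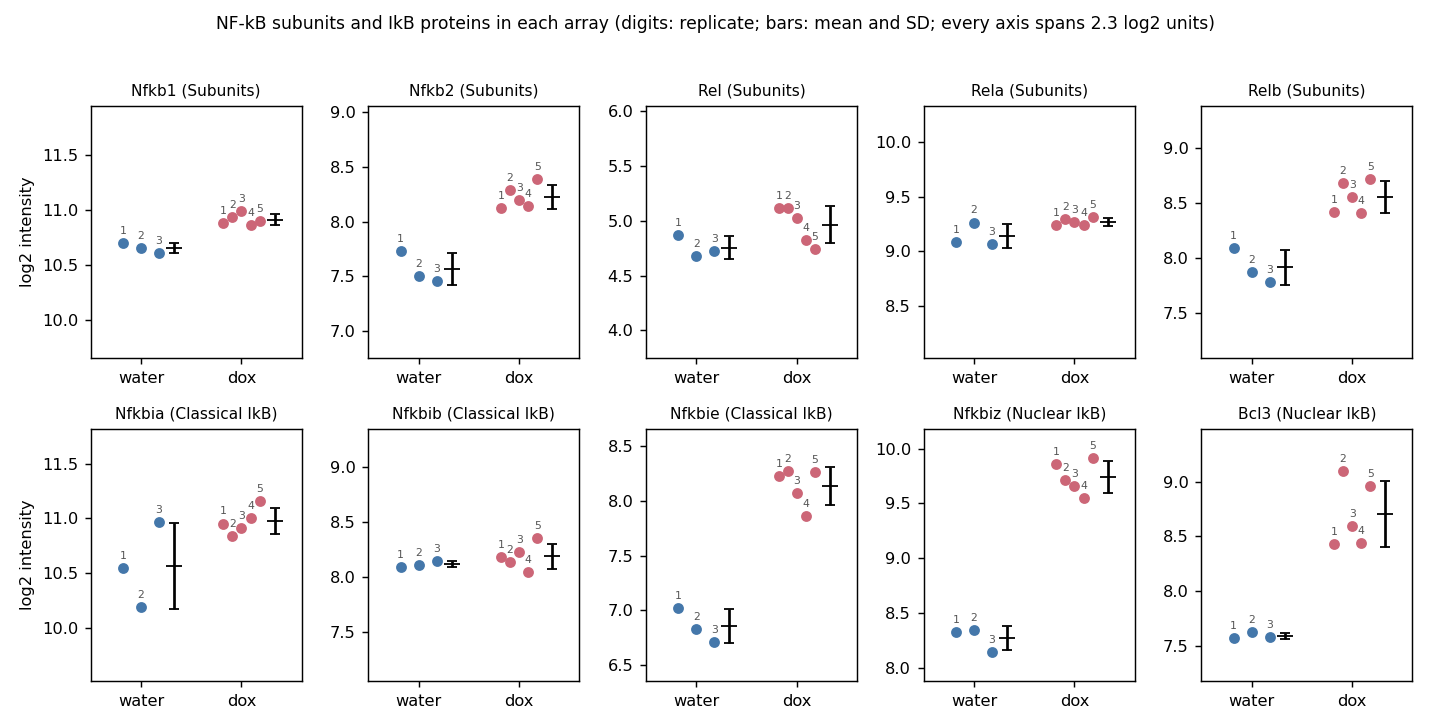
Log2 intensity of the 10 members in each of the 3 water arrays (blue) and 5 dox arrays (red), with the mean and SD of each group beside the points. The groups are separate for Nfkb1, Nfkb2, Relb, Nfkbie, Nfkbiz and Bcl3, and water 3 lies among the dox arrays for Nfkbia.

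Of the nuclear IkB genes among the members 2 of 2 rose, with a median log2 change of 1.29. The median was 0.41 for the classical inhibitors and 0.26 for the subunit genes. With only 2 genes this order depends on the choice of members. The classical inhibitor gene Nfkbie (log2 change 1.28) rose more than Bcl3 (1.11). Nfkbid, which encodes a further nuclear IkB protein and was not a member, did not pass (0.23, adjusted p = 0.324). Nfkbiz encodes a co-regulator that IL-1 receptor signals induce in macrophages and epithelial cells and that secondary NF-kB targets such as Il6 and Lcn2 need. Its intensity was 321, 326 and 283 units in water 1 to 3 and 931, 842, 808, 750 and 963 units in dox 1 to 5. The lowest dox value thus stood far above the highest water value. Nfkbiz rose 2.76-fold (log2 change 1.47 ± 0.09 SE, 95% interval 1.26 to 1.67, adjusted p = 1.23e-05), the 77th largest rise of the 27200 genes. A second probe set for Nfkbiz, designed to another transcript accession, held 135, 163 and 144 units in water and 357, 310, 328, 318 and 312 units in dox. It rose 2.21-fold (1.14 ± 0.08 SE, adjusted p over all probe sets = 3.04e-05, where 2.31% of all probe sets were called higher), so both probe sets moved the same way while their sizes differed.

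Bcl3, which binds dimers of p50 or p52 in the nucleus and can activate or repress their targets, was nearly constant in water, at 191, 197 and 192 units. In dox it held 346, 547, 388, 347 and 498 units. All 5 dox arrays were higher than the water arrays, but dox 2 and dox 5 stood well above the other dox arrays. The spread on the log2 scale was 0.03 (SD, n = 3) in water and 0.30 (SD, n = 5) in dox. Bcl3 rose 2.16-fold (1.11 ± 0.15 SE, 95% interval 0.78 to 1.44, adjusted p = 0.00159).

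Of the 3 classical inhibitors 1 rose. Nfkbie encodes IkB-epsilon, which holds dimers that contain Rela or Rel and is resynthesised after activation. It held 130, 114 and 105 units in water and 299, 309, 270, 232 and 307 units in dox. The groups were far apart, with dox 4 the lowest of the dox arrays. Nfkbie rose 2.44-fold (1.28 ± 0.11 SE, 95% interval 1.05 to 1.52, adjusted p = 7.03e-05).

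Nfkbia encodes IkB-alpha, the inhibitor that is degraded first and made again as an early target of NF-kB. Its values were 1498, 1166 and 2005 units in water and 1983, 1834, 1930, 2057 and 2281 units in dox. Water 3 was higher than 3 of the 5 dox arrays, whereas water 1 and water 2 were below all of them. The log2 SD of the water group, 0.39 (n = 3), was the widest of the 10 members, and that of the dox group was 0.12 (n = 5). Nfkbia therefore did not pass, with a log2 change of 0.41 ± 0.15 SE (95% interval 0.08 to 0.73, adjusted p = 0.16). Without water 3 it was 0.61 and passed (adjusted p = 0.0212), and without water 2 it was 0.21 and did not (0.401), so single water arrays decide the value.

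Nfkbib encodes IkB-beta, which is lost and restored more slowly than IkB-alpha. It held 272, 275 and 283 units in water and 290, 281, 299, 264 and 327 units in dox. The dox values lay on both sides of the water values. Nfkbib did not pass, with a log2 change of 0.08 ± 0.08 SE (adjusted p = 0.659), and its interval of -0.09 to 0.24 corresponds to 0.938-fold to 1.18-fold.

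Of the 5 subunit genes 3 rose, and the pair of the non-canonical pathway moved most. Nfkb2 held 213, 182 and 176 units in water and 279, 313, 294, 282 and 335 units in dox. Relb held 273, 234 and 219 units in water and 343, 411, 375, 340 and 421 units in dox. In both genes water 1 was the highest water array and dox 5 the highest dox array, and the groups did not overlap. Nfkb2 rose 1.58-fold (0.66 ± 0.09 SE, adjusted p = 0.00155). Relb rose 1.56-fold (0.64 ± 0.10 SE, adjusted p = 0.00397).

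Nfkb1 encodes the precursor of p50, the usual partner of Rela. It held 1663, 1611 and 1559 units in water and 1885, 1959, 2038, 1867 and 1910 units in dox. The groups were separate with little spread in either, but the step was small. Nfkb1 rose 1.20-fold (0.26 ± 0.06 SE, 95% interval 0.13 to 0.40, adjusted p = 0.0345). Leaving out water 1, 2 or 3 or dox 1, 2, 3 or 5 ended that call (largest adjusted p 0.111), and so did testing every probe set on its own (0.0554), while the log2 change stayed between 0.24 and 0.29.

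Rela and Rel did not pass. Rela, the main transactivating subunit, held 544, 615 and 538 units in water and 603, 630, 616, 605 and 639 units in dox, and water 2 lay within the dox values. Its log2 change was 0.13 ± 0.07 SE (95% interval -0.01 to 0.28, adjusted p = 0.322), so a rise above 1.21-fold lies outside the interval. Rel, a subunit made chiefly by lymphoid and myeloid cells, was the dimmest member at 29.3, 25.6 and 26.4 units in water and 34.8, 34.7, 32.6, 28.3 and 26.8 units in dox. Dox 4 and dox 5 lay within the water range. Its log2 change was 0.21 ± 0.10 SE (95% interval -0.01 to 0.43, adjusted p = 0.295). Intensities of all probe sets had lower quartiles of 13.9 to 14.5 units and medians of 40.8 to 41.9 units, and detection over background was not assessed, so the size of the change of Rel is uncertain.

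**Figure D3:**
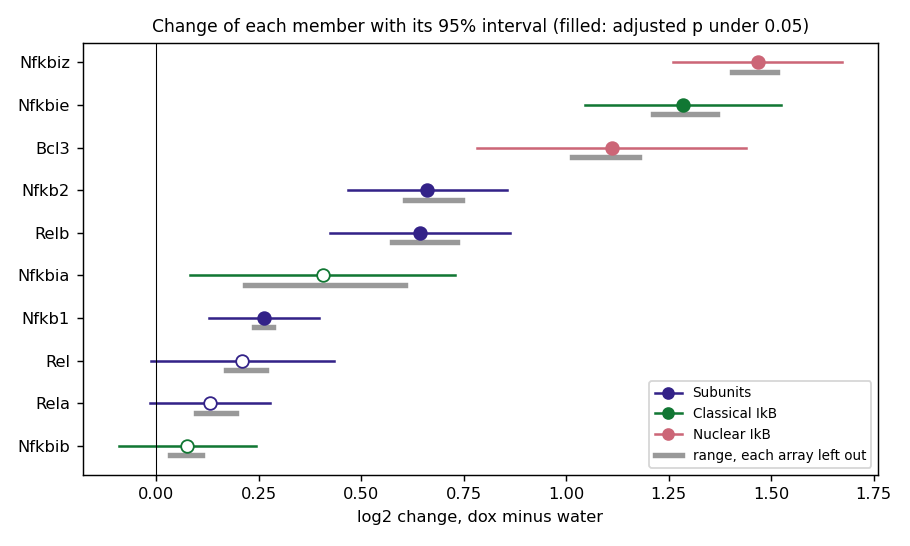
Log2 change of each member (dox minus water, points) with its 95% interval (coloured lines) and the range of the change when each array is left out in turn (grey bars). Filled points passed the threshold. Nfkbiz, Nfkbie and Bcl3 lie above 1, Nfkb2 and Relb near 0.65, and the interval of Nfkbib, Rel and Rela includes 0.

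Members of one role were set against each other by the change of their ratio within arrays, a comparison chosen after the values were seen. With 14 pairs in all, an exact permutation test over the 56 relabellings of 8 arrays, with the 2-sided p taken as the doubled one-sided p, can give no p below 0.0357. In 8 pairs the ratio reached that smallest p, which is 0.0625 after Benjamini-Hochberg adjustment over the 14 pairs, so no pair passed. In these 8 pairs the ratios of the groups did not overlap. The call depends on how the 2-sided p is taken. With the absolute difference as the statistic, an alternative added after the values were seen, the smallest exact permutation p is 0.0179 and 6 of the 14 pairs passed (adjusted p = 0.0417 each). These were Nfkb2 and Relb, each over Nfkb1 and over Rela, and Nfkbie over Nfkbia and over Nfkbib. Since Nfkb2 and Relb moved almost alike, their pairs are not independent results. The ratio of Nfkbie to Nfkbib was 2.31-fold higher in dox, and that of Nfkbie to Nfkbia 1.84-fold higher. The ratio of Nfkb2 to Rela was 1.44-fold higher, and that of Relb to Rela 1.43-fold higher. The ratio of Nfkb2 to Relb changed by 0.02 on the log2 scale (exact permutation p = 0.607, adjusted 0.654). Its SD was 0.03 over the 3 water arrays and 0.05 over the 5 dox arrays. The ratio of Nfkbiz to Bcl3 was 1.28-fold higher (exact permutation p = 0.107, adjusted 0.15).

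The members also differed in how they varied within a group. Among the dox arrays, dox 5 held the highest value for 6 of the 10 members (Nfkb2, Rela, Relb, Nfkbia, Nfkbib and Nfkbiz), and dox 4 held the lowest for 5 (Nfkb1, Relb, Nfkbib, Nfkbie and Nfkbiz). The median deviation of the members from their dox mean was 0.16 in dox 5 and -0.14 in dox 4 on the log2 scale. Rel went the other way in dox 5, at -0.22. Among the water arrays, water 3 held the lowest value for 6 members, while Nfkbia was 0.40 above its water mean there and 0.38 below it in water 2.

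**Figure D4:**
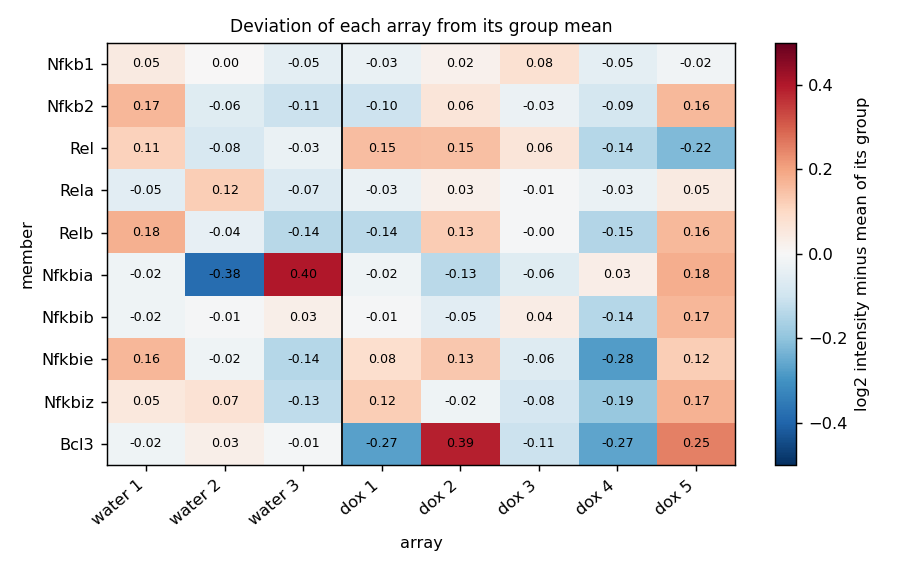
Log2 intensity of each member in each array minus the mean of its group, with water and dox arrays separated by the black line. The rows of Nfkb2 and Relb are nearly alike, Nfkbia stands out in water 2 and water 3, and Bcl3 has the widest range among the dox arrays.

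For each member that rose, the gene with the most similar profile over the 8 arrays was sought among the 13600 genes brighter than the median gene, by the root mean square (RMS) difference of log2 values after each gene was centred on its own mean. The nearest gene to Nfkb2 was Relb, and the nearest to Relb was Nfkb2 (RMS difference 0.04). The nearest to Nfkbie was Cd83, a maturation marker of dendritic cells (0.07). For Bcl3 it was Socs3, an inhibitor of cytokine receptor signals (0.10), for Nfkbiz it was complement component C3 (0.10), and for Nfkb1 it was Dennd2d (0.03). The group difference shared by all genes that rose contributes to each of these values, and so do the common arrays.

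The genes around the family were counted from 7 lists with 68 genes. Of 43 genes outside the target lists 5 rose and 1 fell, against 3.48% and 1.52% of all genes, and their median log2 change was 0.01. Of 7 genes of the IKK complex and its activating kinases 0 passed in limma, and 1 had an unadjusted p under 0.05. That gene was Map3k7, which encodes the kinase TAK1 (0.19 ± 0.08 SE, adjusted p = 0.203). The IKK subunit genes Chuk, Ikbkb and Ikbkg had log2 changes of 0.00, 0.10 and -0.09. Of 11 genes of the ubiquitin machinery 0 passed, and 2 had an unadjusted p under 0.05. The smallest p there was that of the deubiquitinase Cyld (0.22 ± 0.08 SE, adjusted p = 0.14).

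Of 8 adaptors of the IL-1 and Toll-like receptors 1 rose. It was Myd88, the adaptor that these receptors share (0.45 ± 0.07 SE, from 593 to 809 units, adjusted p = 0.00629). Irak1, Irak4 and Traf6, which carry the signal onward, had log2 changes of 0.01, 0.15 and 0.08 and did not pass. At an unadjusted p under 0.05 there were 3 of the 8 adaptor genes, 2 higher and 1 lower. Besides Myd88 these were Irak3 (0.29, limma adjusted p = 0.109) and Tollip (-0.14, 0.263), which did not pass. Of 8 further IkB-like proteins and modulators none rose and 1 fell: Pdlim2, a ubiquitin ligase for nuclear Rela in mice, fell by 0.31 (SE 0.06, adjusted p = 0.0149). Leaving out water 3 ended its call (0.0608). Nfkbid, a further nuclear IkB protein, changed by 0.23 ± 0.12 SE, which was not significant (adjusted p = 0.324).

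Of 9 genes of the non-canonical pathway, which acts through Nfkb2 and Relb, 4 rose, against 3.48% of all genes. Tnfrsf11a, the receptor RANK, rose 1.95-fold (0.97 ± 0.09 SE, from 59.8 to 117 units, adjusted p = 0.000188). Birc3, a ubiquitin ligase that with Traf2 and Traf3 keeps the kinase Map3k14 (NIK) low, rose 1.77-fold (0.82 ± 0.10 SE, adjusted p = 0.000785). Traf2 rose by 0.34, a call lost without water 2 (0.0534), and Traf3 by 0.41, a call lost without water 3 (0.064). For Map3k14 the log2 change was 0.33 ± 0.09 SE, just outside the threshold (adjusted p = 0.0532), and inside it with water 1 left out. The receptor genes Cd40 and Ltbr had log2 changes of -0.10 and 0.00 and did not pass. Tnfrsf13c, a further receptor gene, had -0.49 ± 0.35 SE and did not pass either (adjusted p = 0.5). Its change ran from -0.84 to -0.08 with an array left out.

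Of 20 textbook NF-kB target genes 13 rose and 0 fell, against 3.48% and 1.52% of all genes, and the median log2 change was 0.59. The list was chosen with earlier results of these data known, so the count is not independent evidence. Cxcl1, a chemokine for neutrophils, had the smallest p and a log2 change of 4.59 ± 0.21 SE (adjusted p = 1.06e-06). Ccl2, a chemokine for monocytes, rose by 3.24 (SE 0.19), and Cd83 by 1.39 (SE 0.10). Other targets did not pass: Icam1 had a log2 change of 0.20 (adjusted p = 0.11), Ptgs2 of 0.28, Cflar of 0.00, Bcl2l1 of -0.11, Gadd45b of -0.10, Ier3 of 0.03 and Traf1 of 0.04. Of 7 genes known to depend on Nfkbiz in mouse cells, a list chosen in the same way, 5 rose, against 3.48% of all genes. Il6 and Csf2 stand in both lists. Lcn2, which binds bacterial siderophores, rose by 3.45 (SE 0.14), and Csf2, a growth factor of myeloid cells, by 1.74 (SE 0.14). Il6 rose by 1.77 (SE 0.35, adjusted p = 0.0161) from a water mean of 14.97 units, near the lower quartile of the arrays. Leaving out any 1 water array ended that call (largest adjusted p 0.0594). S100a8 and S100a9 also rose and are neutrophil genes too. Leaving out water 2 or 3 or dox 2, 3 or 5 ended the call of S100a8 (largest adjusted p 0.104), and leaving out water 2 or 3 that of S100a9 (0.0617). Il12b (0.43, adjusted p = 0.0853) and Csf3 (0.03) did not pass. Csf3 too lay near the lower quartile of the arrays, with means of 16.9 units in water and 17.2 units in dox.

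**Figure D5:**
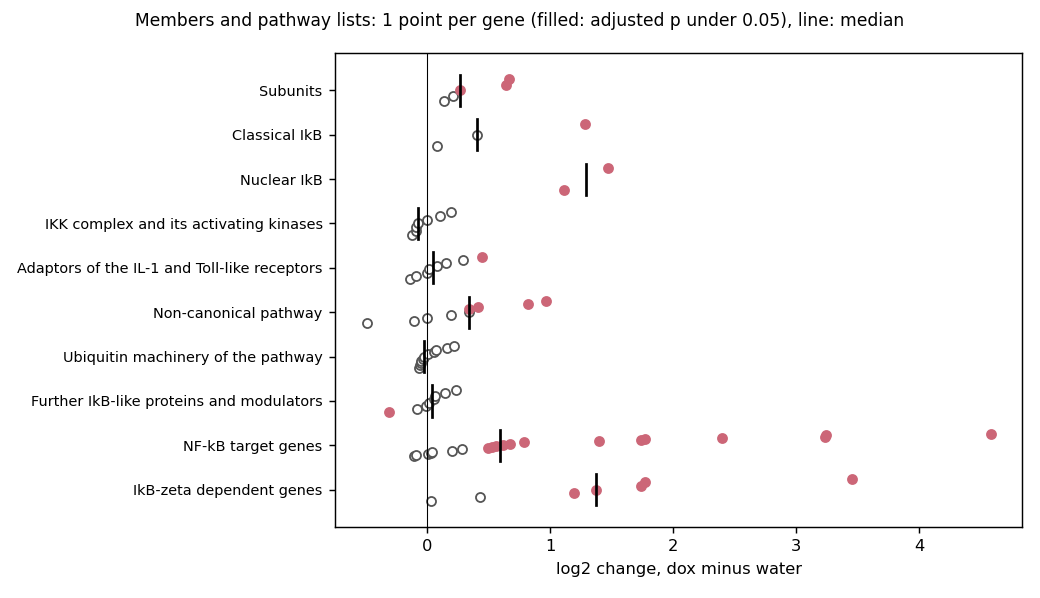
Log2 change (dox minus water) of each gene of the members and of the 7 pathway lists, with filled points for genes past the threshold and a black line at the median of each list. Lists of kinases, adaptors and ubiquitin genes lie near 0, and those of targets reach 4.59.

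Most markers of macrophages, neutrophils and proliferation rose, whereas those of B cells and T cells did not pass. Among all genes 3.48% rose. In whole lung a change in the number of cells of a type cannot be told apart from a change in RNA per cell. Of 10 macrophage markers 8 rose, and their summed intensity ran from 4052 to 4123 units in water and from 8246 to 11085 units in dox. Of 8 neutrophil markers 6 rose, with sums of 2263 to 4808 units in water and 5274 to 10496 units in dox. Retnlg (0.92, limma adjusted p = 0.115) and Ly6g (0.17, 0.366) did not pass. Ly6g was dim, with means of 12.9 units in water and 14.5 units in dox. Of 6 proliferation markers 5 rose (426 to 472 against 759 to 952 units). Of 6 dendritic cell markers 1 rose, Itgax, which lung macrophages make as well (512 to 560 units in water and 796 to 946 in dox). The other 5 summed to 347 to 493 units in water and 362 to 420 units in dox. Among them Flt3 had a log2 change of 0.31 (limma adjusted p = 0.0729) and Xcr1 of 0.13, while Zbtb46, Ccr7 and Clec9a had -0.08, -0.10 and -0.08. Of the 6 dendritic cell markers 2, Itgax and Flt3, had an unadjusted p under 0.05, and both were higher in dox. Of 6 B cell and 6 T cell markers 0 passed in limma, and 0 had an unadjusted p under 0.05. Their sums overlapped between the groups, at 683 to 1896 against 476 to 1089 units for B cells and 960 to 1527 against 1082 to 1375 units for T cells. The part of these cells in the changes of the members was not tested. The labelled tissue was borne out by its markers: the 6 alveolar type 2 markers, among them the surfactant protein gene Sftpc, summed to 59720 to 62994 units over the 8 arrays. Of these, Lamp3 and Sftpa1 rose, by 0.40 and 0.37. Sftpa1 passed in only 1 of 8 fits with an array removed (largest adjusted p 0.137). At an unadjusted p under 0.05 there were 3 type 2 markers, 2 higher and 1 lower, Sftpb (-0.17), which did not pass. Of 6 alveolar type 1 and 6 endothelial markers 0 passed in limma, with 2 and 5 at an unadjusted p under 0.05, each of them lower in dox, against 18.7% of all genes at that p in either direction. All 6 endothelial log2 changes were below 0, from -0.30 for Kdr to -0.08 for Pecam1, with a median of -0.25. Among the type 1 markers Ager and Hopx had log2 changes of -0.19 and -0.16. Of 6 airway markers Tppp3, a gene of ciliated cells, fell by 0.40 on the log2 scale (adjusted p = 0.00808), and 2 had an unadjusted p under 0.05. The other airway markers did not pass, among them Foxj1 (0.13) and Dnah5 (-0.14), which ciliated cells express too. Scgb1a1 had a log2 change of 0.05, and Scgb3a2 and Cyp2f2 of -0.25 each. Of 6 fibroblast markers Tcf21 fell by 0.44 (adjusted p = 0.0493), but past the threshold in only 2 of 8 fits with an array removed, those of water 1 and dox 4 (largest adjusted p 0.165), and 4 had an unadjusted p under 0.05. The collagen genes Col1a1, Col1a2 and Col3a1 were 3 of these 4, with log2 changes of 0.41, 0.44 and 0.28 that did not pass.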

How the data were processed

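The authors deposited linear intensities for each probe set of each array. Per the submitters' processing notes they were computed with RMA, of a version not given in these sources. Such values are scaled between arrays, so a change in total RNA is not visible in them. Biotin-labelled cRNA from total RNA was hybridised to a 1-colour array, per the labels' protocols. Gene symbols came from the annotation in a deposited text file, of which 8 value columns match no sample label and were not used. Symbols were updated with RefSeq names of assembly GRCm38.p6, and 36993 of 43681 probe sets had 1 symbol. The probe set with the highest mean stood for a gene. Intensities were taken to log2 with no pseudocount and no filter, and tested with limma 3.58.1 in R 4.3.3 (2-sided, dox minus water, Benjamini-Hochberg). Levels are in intensity units, and errors are limma's SE or SDs over 3 water and 5 dox arrays; the number of arrays limits the precision. Exact permutation tests used scipy 1.17.1, and plots matplotlib 3.10.9. On simulated data with 200 of 27200 genes changed, dox against water, the test found 64% of 1.5-fold and 98% of 2-fold changes. Of its 196 calls 15 were false. The noise there was drawn independently for each gene and fewer genes changed than the 1359 called here, so these rates need not hold for the real arrays. Arrays of 1 group correlated with r of 0.995 to 0.997 across genes, and no labels give a batch. The members and lists were chosen with earlier results of these data known. By rule, all members, up to 3 genes of smallest p per pathway list and the nearest profile were named; further list genes and the ratios within arrays were picked with their values known. The fit was repeated with a trended robust prior, weighted arrays, a further quantile normalization, array medians subtracted, the dimmest 25% of genes removed, probe sets averaged or tested singly, a replicate block, and single arrays left out.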

Additional observations from a re-analysis of the deposited data

How the results depend on the processing

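Nfkbiz, Nfkbie, Bcl3, Nfkb2 and Relb passed, in the same direction, under each of the alternatives run and with each array left out. Nfkb1 did not pass in 9 of 16 of these settings, and Nfkbia passed in 1, without water 3. The number of members that rose ran from 5 to 6 with each array left out, and none fell in any setting. Without dox 4 the same 6 members rose, whereas the 6 without water 3 included Nfkbia and not Nfkb1. The second Nfkbiz probe set gave the lowest log2 change of that gene, 1.14. Pathway genes called numbered 22, and 15 to 22 with an array left out. Calls over all genes ran from 893 (without water 2) to 1290 with an array left out, against 1359 of which 69.6% were higher in dox. Same-numbered water and dox arrays did not deviate together (correlations of 0.01, 0.06 and -0.16 over genes). No water array correlated best with the dox array of its own number, and the highest value was 0.31, for water 3 and dox 5. The numbers were therefore not taken to pair the samples. With the replicate block 5 members, 13 pathway genes and 606 genes in all were called; the block leaves fewer degrees of freedom. By the doubled p the ratios of members cannot pass with an array left out either, since 7 arrays allow no p small enough. With the absolute difference as the statistic, the ratios were not tested with an array left out, so how far those calls rest on single arrays is unknown. Rel, Il6 and Csf3 were dim, and signal over background was not assessed.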
